A study of Mus musculus with 36 samples.

Results

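The neurotrophins brain-derived neurotrophic factor (Bdnf) and neurotrophin-3 (Ntf3), glial cell line-derived neurotrophic factor (Gdnf), and the genes of their receptors (Ngfr, Ntrk2, Ntrk3, Gfra1, Gfra3 and Ret) were examined in perisynaptic Schwann cells (PSCs), the glia that cover the neuromuscular junction, and in the cells sorted beside them from the same muscles. The 9 genes were found by Ensembl identifier among the 52636 genes of the count table, and all 9 were in it. RNA-seq was made from cells of untreated S100β-GFP;NG2-dsRed mice, in which the S100b promoter drives GFP and the promoter of Cspg4, the gene of NG2, drives dsRed. Diaphragm, pectoralis, forelimb and hindlimb muscles were dissociated and sorted by FACS into PSCs, which carried both GFP and dsRed (n = 9 libraries), S100β-GFP+ cells (n = 8) and NG2-dsRed+ cells (n = 10), and a library came from the sorted cells of a single mouse. The sources used here do not say whether libraries of different cell types shared a mouse. The study's methods give an age of P15 to P21 for these mice. The labels give the same age for the first library and an end of the range that counts up by library to day 46, and they give no strain. The labels name 12 libraries per cell type, and those without a column in the table were not analysed here. The study's methods keep fewer S100β-GFP+ libraries after removal of failed samples than the table holds and do not name them, so that a library used here may be one the study left out.

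Neurotrophins are secreted as precursors that proteases cut to the mature factor. BDNF binds the receptor tyrosine kinase TrkB (Ntrk2) and NT-3 binds TrkC (Ntrk3), while p75NTR (Ngfr) binds all neurotrophins and, with sortilin-type receptors, their precursors. GDNF binds the membrane-anchored co-receptor GFRα1 (Gfra1), which engages the receptor tyrosine kinase Ret. GFRα3 (Gfra3) is the co-receptor of artemin, a relative of GDNF. At the neuromuscular junction muscle, nerve terminal and glia are all known sources or targets of these factors, and TrkB and p75NTR are known for their part in signalling between the motor nerve and its glia.

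The sorted cells were first compared with marker genes of the cell types that muscle holds. The summed level of 7 Schwann cell lineage markers, among them Sox10, was between 2000 and 2920 CPM (counts per 1000000 after normalization of library size) in PSC libraries, between 132 and 463 CPM in S100β-GFP+ libraries and between 23.0 and 74.9 CPM in NG2-dsRed+ libraries. Among these markers Gap43 alone had a higher mean in S100β-GFP+ cells (57.1 CPM) than in PSCs (5.38 CPM). In S100β-GFP+ libraries all 7 of these markers were detected, and 6 myelin genes reached 1470 to 3570 CPM, against 2470 to 3390 CPM in PSCs. The same libraries held 18300 to 41800 CPM of 6 fibroblast markers and 276 to 2060 CPM of 5 macrophage and leukocyte markers, against 703 to 2870 CPM and 2.46 to 11.4 CPM in PSCs. They are therefore named by their sort here and not as pure Schwann cells. NG2-dsRed+ libraries were high in 9 pericyte and smooth muscle markers (7180 to 15800 CPM) and held 2240 to 19200 CPM of the fibroblast markers. They also held 1160 to 2620 CPM of 5 endothelial markers, against 118 to 1980 CPM in S100β-GFP+ and 96.9 to 467 CPM in PSC libraries. The 9 neuronal markers summed to 3.37 to 14.9 CPM in PSC, 9.37 to 36.9 CPM in S100β-GFP+ and 26.0 to 52.2 CPM in NG2-dsRed+ libraries, with Stmn2 at 34.5 CPM in the last, and Chat was at 0.871 CPM or less in every library. S100β-GFP+ libraries 14, 17 and 22 stood apart from the other 5, with 687 to 1980 CPM of 5 endothelial markers against 118 to 176 CPM, and with 276 to 543 CPM of the macrophage and leukocyte markers against 1320 to 2060 CPM. Calls of the 9 genes that changed without them are given both ways. S100b, whose promoter drives the GFP, was at 255 ± 198 CPM (SD, n = 9) in PSCs, 29.4 ± 10.1 CPM (n = 8) in S100β-GFP+ cells and 6.54 ± 4.90 CPM (n = 10) in NG2-dsRed+ cells, and Cspg4 was at 689 ± 132, 71.0 ± 42.3 and 665 ± 138 CPM. Libraries held 5221655 to 9592875 counts, of which Lars2, Gm23935 and Gm15564 took 3.64% to 40.0%. In such pools, fewer cells of a type and less RNA per cell cannot be told apart.

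Of the 9 genes, Ntrk2 was the 1 that passed the threshold (adjusted p under 0.05) as higher in PSCs than in both other sorts. Its level was 284 ± 69.7 CPM (SD, n = 9) in PSCs, 83.8 ± 26.0 CPM (n = 8) in S100β-GFP+ cells and 75.3 ± 12.7 CPM (n = 10) in NG2-dsRed+ cells. Bdnf, Ntf3 and Ret, the kinase of the GDNF receptor, were lower in PSCs than in both of these, but against S100β-GFP+ cells Ntf3 and Ret did not pass the threshold without 3 libraries that stood apart (log2 fold changes 0.12 and -0.93, adjusted p = 0.862 and 0.171). Of the 7 genes that passed the filter on low counts, 4 differed between PSCs and S100β-GFP+ cells (1 higher and 3 lower in PSCs), where 47.0% of the 15330 genes tested differed (22.9% higher and 24.1% lower). Between PSCs and NG2-dsRed+ cells 5 differed (1 higher and 4 lower), against 44.0% of all genes (20.9% higher and 23.1% lower), and between S100β-GFP+ and NG2-dsRed+ cells 2 differed, both lower in S100β-GFP+ cells, against 33.3% (15.2% lower). Cell types differed in so many genes that these counts do not set the 9 genes apart from the rest. The median log2 fold change over all genes was 0.04, 0.02 and -0.02 in these 3 comparisons, which share libraries with each other. Gdnf and Gfra3 did not pass the filter.

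**Figure D1:**
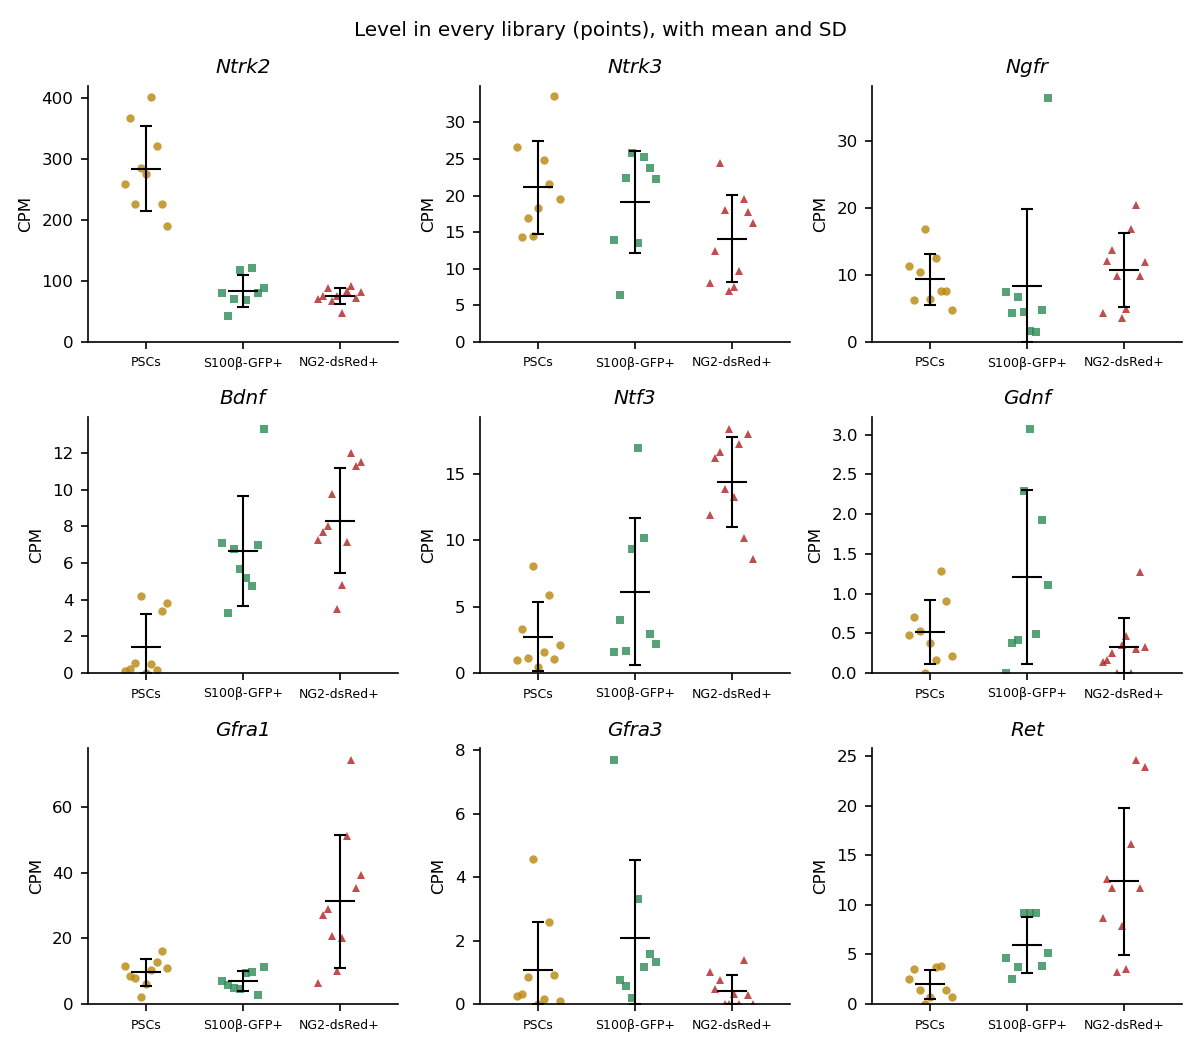
Level of each of the 9 genes in CPM (y axes, from 0) in every PSC (circles), S100β-GFP+ (squares) and NG2-dsRed+ (triangles) library, with the mean and SD of each cell type as a bar with whiskers that stop at 0. All 9 PSC libraries lie above all others for Ntrk2 (190 CPM or more against at most 121 CPM), 3 PSC libraries lie apart from the other 6 for Bdnf, and NG2-dsRed+ libraries spread from 6.24 to 74.5 CPM for Gfra1.

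Ntrk2 (ENSMUSG00000055254, chr13:58806569-59133970, plus strand, GRCm38), the gene of the BDNF receptor TrkB, ranged from 190 to 402 CPM in PSC libraries with a median of 275 CPM. S100β-GFP+ libraries ranged from 42.2 to 121 CPM (median 80.8 CPM) and NG2-dsRed+ libraries from 46.9 to 91.7 CPM, with the 2 middle libraries at 74.7 and 75.4 CPM. Every PSC library lay above every library of both other cell types, which was so for 5.24% of all genes against S100β-GFP+ and for 5.08% against NG2-dsRed+ cells. The gene was 3.39-fold higher in PSCs than in the S100β-GFP+ cells (log2 fold change 1.76, SE 0.19, adjusted p = 4.89e-09 by edgeR's quasi-likelihood test with Benjamini-Hochberg adjustment, as for every adjusted p of a fold change here) and 3.77-fold higher than in NG2-dsRed+ cells (1.91, SE 0.17, adjusted p = 2.94e-10). Without S100β-GFP+ libraries 14, 17 and 22 the first of these log2 fold changes was 2.02. The other cell types did not differ from each other past the threshold (log2 fold change 0.15, SE 0.18, adjusted p = 0.552). The annotation lists 10 transcripts of Ntrk2, of which 7 are protein-coding, and the gene is known to make a TrkB with and TrkB forms without the kinase domain. The counts per gene do not separate these forms.

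Ntrk3 (ENSMUSG00000059146, chr7:78175959-78738012, minus strand), the gene of the NT-3 receptor TrkC, was at a lower level with no difference past the threshold. It ranged from 14.3 to 33.6 CPM in PSCs (median 19.5 CPM), from 6.37 to 25.8 CPM in S100β-GFP+ cells (median 22.3 CPM) and from 7.01 to 24.5 CPM in NG2-dsRed+ cells (median 14.4 CPM). The ranges of all 3 cell types overlapped. The log2 fold change in PSCs was 0.14 (SE 0.27, adjusted p = 0.690) against S100β-GFP+ cells and 0.59 (SE 0.25, adjusted p = 0.0621) against NG2-dsRed+ cells. The second of these passed the threshold with DESeq2 (log2 fold change 0.63, adjusted p = 0.0488), and with 3 of the 8 other settings tried.

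Ngfr (ENSMUSG00000000120, chr11:95568818-95587735, minus strand), the gene of p75NTR, was detected in all 27 libraries and did not differ past the threshold between any of the cell types. PSC libraries ranged from 4.84 to 16.8 CPM (median 7.65 CPM), and NG2-dsRed+ libraries from 3.51 to 20.5 CPM (median 10.9 CPM). S100β-GFP+ libraries had a median of 4.56 CPM and ranged from 1.48 to 36.4 CPM. The highest of these values came from library 33 alone, and the other 7 S100β-GFP+ libraries were at 7.40 CPM or below. With all libraries the log2 fold change of PSCs over S100β-GFP+ cells was 0.16 (SE 0.47, adjusted p = 0.809). Without library 33 it was 1.06 (SE 0.37, adjusted p = 0.0218), and that of S100β-GFP+ over NG2-dsRed+ cells went from -0.37 (SE 0.46, adjusted p = 0.586) to -1.28 (SE 0.37, adjusted p = 0.00878). Library 33 also had the highest sum of Schwann cell lineage markers among S100β-GFP+ libraries, 463 CPM, and the part of these cells in the Ngfr level was not tested. PSCs and NG2-dsRed+ cells did not differ past the threshold (log2 fold change -0.21, SE 0.44, adjusted p = 0.729).

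Bdnf (ENSMUSG00000048482, chr2:109674700-109727007, plus strand), the ligand of TrkB, was lower in PSCs than in either other sort. PSC libraries ranged from 0 to 4.21 CPM with a median of 0.470 CPM, and 1 of the 9 had no count. S100β-GFP+ libraries ranged from 3.25 to 13.3 CPM (median 6.22 CPM) and NG2-dsRed+ libraries from 3.51 to 12.0 CPM (median 7.85 CPM). PSC libraries fell into 2 levels: libraries 18, 34 and 36 were at 4.21, 3.37 and 3.79 CPM (24, 26 and 36 counts), and the other 6 were at 0 to 0.522 CPM (at most 5 counts). All 3 were within the range of S100β-GFP+ libraries, and library 34 was below every NG2-dsRed+ library. The log2 fold change was -2.24 (SE 0.59, adjusted p = 0.00244) against S100β-GFP+ cells and -2.57 (SE 0.57, adjusted p = 0.000521) against NG2-dsRed+ cells. By limma-voom these were -4.16 (SE 0.63) and -4.45 (SE 0.60). Levels in S100β-GFP+ and NG2-dsRed+ cells did not differ past the threshold (-0.33, SE 0.54, adjusted p = 0.692). An annotated antisense gene, Gm45346, shares exonic sequence with Bdnf and had 2 counts over all libraries.

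The windows directly upstream of the outermost annotated start of Ntrk2 and of Bdnf are shown for reference, since this receptor and its ligand differed in opposite directions between PSCs and the other cells. Both are the 250 bases before the start, 5′ to 3′ on the strand of the gene, from RefSeq on GRCm38. Capitals mark matches to the 4 short motifs that were searched on both strands, the SOX-type motifs ACAAAG and ACAATG, the cAMP response element core TGACG and the TATA-type motif TATAAA.
Ntrk2, chr13:58806319-58806568, plus strand: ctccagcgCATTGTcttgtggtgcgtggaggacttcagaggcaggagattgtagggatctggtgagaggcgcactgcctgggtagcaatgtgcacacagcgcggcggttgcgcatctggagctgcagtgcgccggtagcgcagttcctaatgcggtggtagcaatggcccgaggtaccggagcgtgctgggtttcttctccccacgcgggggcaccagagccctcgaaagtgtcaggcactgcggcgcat
Bdnf, chr2:109674450-109674699, plus strand: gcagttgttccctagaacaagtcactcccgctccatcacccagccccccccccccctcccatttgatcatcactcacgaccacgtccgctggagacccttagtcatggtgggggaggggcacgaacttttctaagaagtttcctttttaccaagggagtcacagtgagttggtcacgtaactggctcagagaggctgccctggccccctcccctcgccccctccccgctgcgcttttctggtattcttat
The Ntrk2 window was 62.8% G and C with 19 CpG, and held 1 match, to ACAATG on the reverse strand, a motif found in 10.7% of the 32851 windows of this length in the RefSeq table. The Bdnf window was 58.0% G and C with 9 CpG and held none of the 4 motifs, of which ACAAAG was in 16.5%, TGACG in 17.8% and TATAAA in 12.4% of all windows. Bdnf has 6 further windows at starts downstream, and 1 of them (chr2:109692186-109692435) held ACAAAG and TGACG once each. The RefSeq table held 14 windows of 6 of the 9 genes (Ngfr, Ntrk2, Bdnf, Ntf3, Gdnf and Gfra1). A match describes letters only, and the RNA-seq counts do not say which start was used.

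Ntf3 (ENSMUSG00000049107, chr6:126101412-126166910, minus strand), the gene of NT-3, was highest in NG2-dsRed+ cells. NG2-dsRed+ libraries ranged from 8.57 to 18.4 CPM (median 15.0 CPM) and PSC libraries from 0.478 to 8.06 CPM (median 1.57 CPM). All PSC libraries were below all NG2-dsRed+ libraries, which was so for 8.83% of all genes, and the gene was 5.40-fold lower in PSCs (log2 fold change -2.43, SE 0.47, adjusted p = 0.000108, and -3.46 by limma-voom). S100β-GFP+ libraries fell into the 3 that stood apart by their markers, at 9.35, 17.0 and 10.2 CPM in libraries 14, 17 and 22, and the other 5, at 1.60 to 4.00 CPM. With all of them Ntf3 was lower in PSCs than in the S100β-GFP+ cells (log2 fold change -1.18, SE 0.49, adjusted p = 0.0463), but without those 3 libraries the log2 fold change was 0.12 (SE 0.47, adjusted p = 0.862). The difference of S100β-GFP+ from NG2-dsRed+ cells was -1.25 (SE 0.47, adjusted p = 0.0402) with them and -2.54 (SE 0.49, adjusted p = 0.000170) without them. The same 3 libraries had 986 to 1650 CPM of the pericyte and smooth muscle markers against 246 to 856 CPM in the other 5, next to the endothelial difference given above, and the part of these cells in the Ntf3 level was not tested.

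Gdnf (ENSMUSG00000022144, chr15:7810846-7837575, plus strand) was at the edge of detection in all cell types, with 41, 51 and 22 counts over all PSC, S100β-GFP+ and NG2-dsRed+ libraries. Its level was 0.516 ± 0.402 CPM (SD, n = 9) in PSCs, 1.21 ± 1.10 CPM (n = 8) in S100β-GFP+ cells and 0.327 ± 0.365 CPM (n = 10) in NG2-dsRed+ cells. It ranged from 0 to 1.29 CPM, from 0 to 3.07 CPM and from 0 to 1.27 CPM, so the ranges overlapped. The difference of S100β-GFP+ from NG2-dsRed+ cells, 0.883 CPM, had p = 0.0235 by a two-sided exact permutation test, and 0.0705 after adjustment over the 6 such tests of Gdnf and Gfra3. Without S100β-GFP+ libraries 14, 17 and 22 it was 0.436 CPM (exact permutation, adjusted p = 0.392). The exact permutation p-values for PSCs were 0.100 against S100β-GFP+ and 0.300 against NG2-dsRed+ cells.

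Gfra1 (ENSMUSG00000025089, chr19:58235604-58455909, minus strand), the gene of the GDNF co-receptor, was highest in NG2-dsRed+ cells, with a wide spread among them. NG2-dsRed+ libraries ranged from 6.24 to 74.5 CPM (median 28.1 CPM), PSC libraries from 2.10 to 16.1 CPM (median 10.3 CPM) and S100β-GFP+ libraries from 2.61 to 11.3 CPM (median 6.43 CPM). Of the 10 NG2-dsRed+ libraries, 8 were above every library of the other cell types. The log2 fold change was -1.70 (SE 0.36, adjusted p = 0.000326) for PSCs and -2.18 (SE 0.39, adjusted p = 5.60e-05) for S100β-GFP+ cells, both against NG2-dsRed+ cells. PSCs and S100β-GFP+ cells did not differ past the threshold (0.48, SE 0.39, adjusted p = 0.319). The antisense gene Gm16277 overlaps exons of Gfra1 and had 0 counts.

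Ret (ENSMUSG00000030110, chr6:118151745-118197718, minus strand), the kinase that GFRα co-receptors engage, was low in PSCs, where libraries ranged from 0 to 3.86 CPM (median 1.43 CPM). S100β-GFP+ libraries ranged from 2.50 to 9.22 CPM (median 4.87 CPM) and NG2-dsRed+ libraries from 3.20 to 24.6 CPM (median 11.7 CPM). Of the PSC libraries, 6 were below every NG2-dsRed+ library and 5 below every S100β-GFP+ library. Ret was 6.21-fold lower in PSCs than in NG2-dsRed+ cells (log2 fold change -2.63, SE 0.47, adjusted p = 3.46e-05) and 2.96-fold lower than in S100β-GFP+ cells (-1.56, SE 0.48, adjusted p = 0.00835). The second difference also rested on S100β-GFP+ libraries 14, 17 and 22, at 9.17 to 9.22 CPM against 2.50 to 5.10 CPM in the others, and without them it was -0.93 (SE 0.54, adjusted p = 0.171). S100β-GFP+ cells were at -1.07 against NG2-dsRed+ cells (SE 0.46, adjusted p = 0.0742) with these libraries and at -1.68 (SE 0.56, adjusted p = 0.0212) without them.

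**Figure D2:**
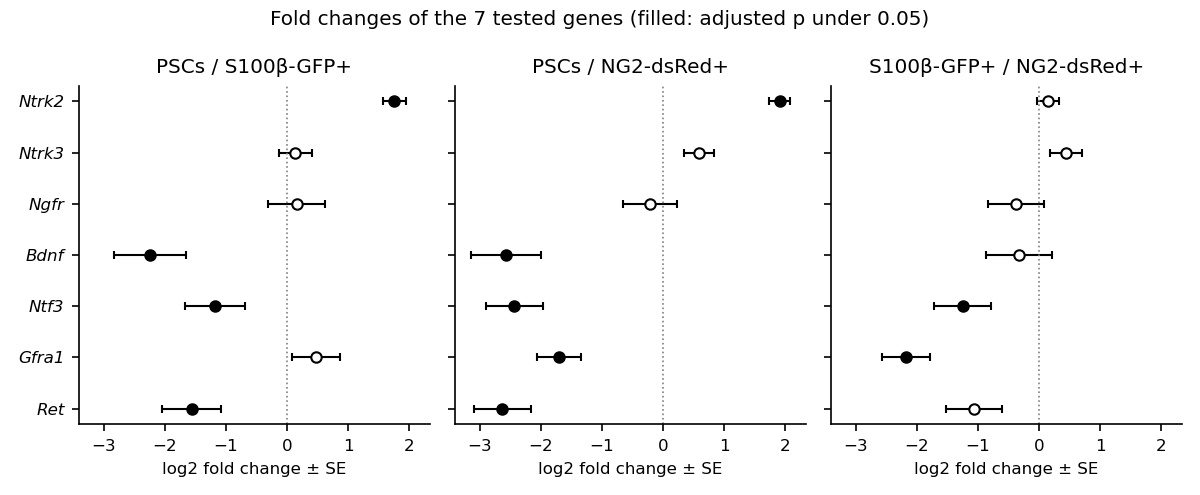
Log2 fold changes (x axis) with their SE of the 7 genes that passed the filter, in PSCs over S100β-GFP+ cells (left), PSCs over NG2-dsRed+ cells (middle) and S100β-GFP+ over NG2-dsRed+ cells (right), filled where the adjusted p was under 0.05. Ntrk2 lies to the right of 0 by 1.76 and 1.91 in the PSC comparisons, and Bdnf, Ntf3 and Ret lie to the left.

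Levels of Gfra1, Ret and Ngfr among NG2-dsRed+ libraries moved with the summed level of the 6 fibroblast markers (Pdgfra, Col1a1, Col3a1, Dcn, Lum and Dpt). Library 2 was lowest in these markers, 2240 CPM, and had 6.24 CPM of Gfra1, 8.65 CPM of Ret and 4.26 CPM of Ngfr. Library 28 was highest, 19200 CPM, and had 74.5, 24.6 and 20.5 CPM. Over the 10 libraries Pearson's r of the log2 levels was 0.97 for Gfra1 (permutation test p = 1e-05, the smallest that 100000 permutations can give, adjusted p = 0.00036) and Spearman's rho was 0.94 (p = 0.00014, adjusted p = 0.00504), and r was 0.89 without the 2 libraries farthest from the median of the markers. For Ngfr r was 0.86 (permutation p = 0.0013, adjusted p = 0.0234) and rho 0.85 (p = 0.00277, adjusted p = 0.0277), with r = 0.68 without the 2 farthest libraries. For Ret rho was 0.89 (permutation p = 0.00117, adjusted p = 0.0211), but r was 0.65 (p = 0.0427, adjusted p = 0.154) and 0.92 without the 2 farthest libraries. These relations were chosen after the values were seen and belong to 36 that were computed. In PSCs, Gfra1 also moved with these markers by rho (0.88, exact permutation p = 0.00308, adjusted p = 0.0277) with r = 0.79 (exact p = 0.00784, adjusted p = 0.0763) and 0.81 without the 2 farthest libraries. S100β-GFP+ libraries other than library 3 held more of these markers than every NG2-dsRed+ library, yet at most 11.3 CPM of Gfra1, and there Gfra1 and the markers had r = 0.06 (exact permutation p = 0.879, adjusted p = 0.959), rho = -0.02 (exact p = 0.977, adjusted p = 1.00) and r = 0.33 without the 2 farthest libraries. The part of fibroblasts in the differences between cell types was not tested.

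**Figure D3:**
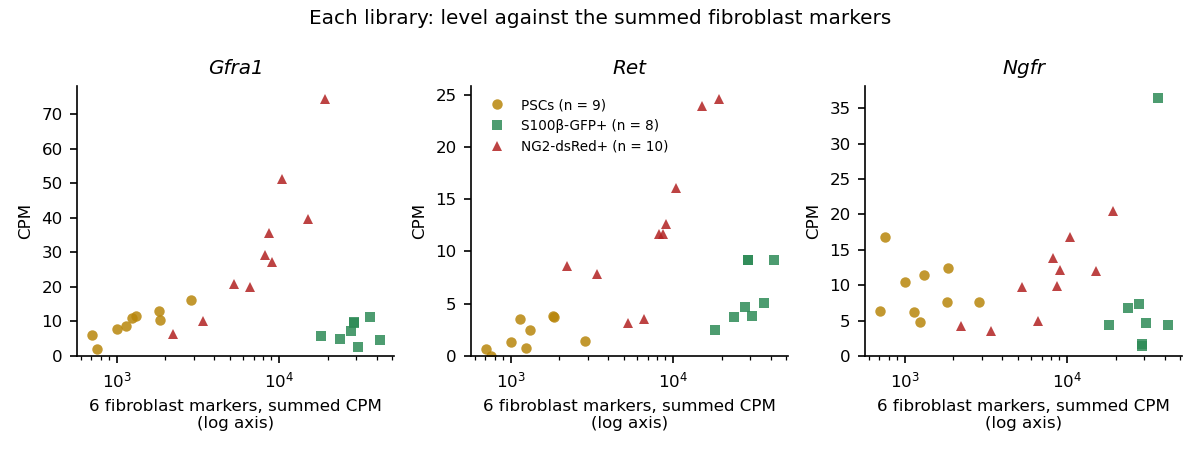
Level of Gfra1, Ret and Ngfr in CPM (y axes) against the summed CPM of 6 fibroblast markers (x axes, log scale) in every PSC (circles), S100β-GFP+ (squares) and NG2-dsRed+ (triangles) library. NG2-dsRed+ libraries climb from 6.24 CPM of Gfra1 at 2240 CPM of markers to 74.5 CPM at 19200 CPM, while S100β-GFP+ libraries stay at 2.61 to 11.3 CPM of Gfra1 at 18300 CPM or more.

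Gfra3 (ENSMUSG00000024366, chr18:34689898-34720387, minus strand), the gene of the artemin co-receptor, had a level of 1.07 ± 1.53 CPM (SD, n = 9) in PSCs, 2.07 ± 2.46 CPM (n = 8) in S100β-GFP+ cells and 0.419 ± 0.481 CPM (n = 10) in NG2-dsRed+ cells. PSC libraries ranged from 0 to 4.56 CPM, S100β-GFP+ libraries from 0.176 to 7.69 CPM and NG2-dsRed+ libraries from 0 to 1.37 CPM, with no count in 4 of the 10. The difference between S100β-GFP+ and NG2-dsRed+ cells was 1.65 CPM (two-sided exact permutation p = 0.00747, adjusted p = 0.0448 over the 6 tests). It was 0.845 CPM (exact permutation, adjusted p = 0.0669) without S100β-GFP+ library 1, which held the highest level, and 1.96 CPM (exact permutation, adjusted p = 0.0619) without libraries 14, 17 and 22. PSCs overlapped both other cell types (exact permutation p = 0.367 and 0.248).

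Levels were then compared between genes per kb of exon. In PSCs Ntrk2 was first, at 14.7 ± 3.61 CPM per kb (SD, n = 9), and its lowest library, 9.83 CPM per kb, was above the highest library of the next gene, Ngfr (2.71 ± 1.10, at most 4.88 CPM per kb). Gfra1 (1.76 ± 0.741 CPM per kb), Ntf3 (1.59 ± 1.52), Ntrk3 (0.700 ± 0.209), Gfra3 (0.538 ± 0.765), Ret (0.293 ± 0.217), Bdnf (0.228 ± 0.289) and Gdnf (0.140 ± 0.109) followed, each overlapping the next. In S100β-GFP+ cells no gene was apart from its neighbour in the order, which began with Ntrk2 (4.34 ± 1.35 CPM per kb, n = 8) and Ntf3 (3.58 ± 3.24). Without libraries 14, 17 and 22 it began with Ntrk2 (3.75 ± 0.929 CPM per kb, n = 5) and Ngfr (3.46 ± 3.99), and Ntf3 was at 1.45 ± 0.588 CPM per kb, a choice made after seeing the data. In NG2-dsRed+ cells Ntf3 was first (8.43 ± 1.99 CPM per kb, n = 10), then Gfra1 (5.74 ± 3.70), Ntrk2 (3.90 ± 0.661) and Ngfr (3.12 ± 1.60), again with overlapping neighbours. Ntrk2 made up 65.1% ± 8.14 (SD, n = 9) of the summed level per kb of the 9 genes in PSCs, 29.1% ± 7.58 (n = 8) in S100β-GFP+ cells and 16.1% ± 3.08 (n = 10) in NG2-dsRed+ cells. The exon length used here joins the exons of all transcripts, 19.3 kb for Ntrk2 and 30.2 kb for Ntrk3, and so understates the level of genes that use short forms.

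**Figure D4:**
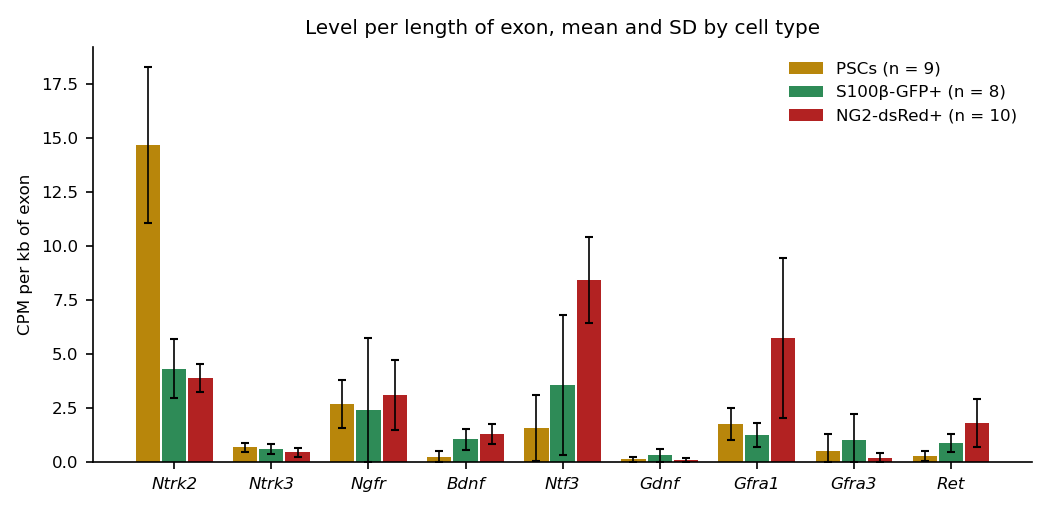
Mean level in CPM per kb of exon (y axis, from 0) of the 9 genes in PSCs, S100β-GFP+ cells and NG2-dsRed+ cells, with the SD as whiskers that stop at 0. Ntrk2 leads in PSCs (14.7 CPM per kb) and Ntf3 in NG2-dsRed+ cells (8.43 CPM per kb).

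The genes whose log2 CPM followed Ntrk2 most closely over the 27 libraries were Il1rap (Pearson's r = 0.96), Trim2 (0.95) and Pex5l (0.95). Bdnf was followed most closely by Hacd1 (0.94), Ldlrad4 (0.88) and D1Ertd622e (0.88), and Ntf3 by Btg3 (0.94), Id3 (0.93) and Ptp4a3 (0.92). For Ret these were Lama2 (0.92), Igf2 (0.89) and Pxdn (0.89), and for Gfra1 Smoc2 (0.86), Klf5 (0.85) and Col15a1 (0.84). The closest genes were less close for Ngfr (Maged2, 0.76) and for Ntrk3 (Nudt21, 0.72). These are descriptions over libraries of 3 cell types, in which any genes that differ between the cell types in the same direction rise and fall together.

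Other genes of the pathways were then counted from 7 lists, 83 genes in the table of which 68 passed the filter. Of these, 44 (64.7%) differed between PSCs and S100β-GFP+ cells, 36 (52.9%) between PSCs and NG2-dsRed+ cells and 37 (54.4%) between S100β-GFP+ and NG2-dsRed+ cells, against 47.0%, 44.0% and 33.3% of all genes tested. Among 5 other neurotrophin genes tested, 3 were higher and 2 lower in PSCs than in the S100β-GFP+ cells (median log2 fold change 1.87), and 2 were higher and 2 lower than in NG2-dsRed+ cells (median -0.20). Sorcs2, a sortilin-family receptor that binds proneurotrophins with p75NTR, was at 142 ± 62.0 CPM (SD, n = 9) in PSCs, against 11.1 CPM in S100β-GFP+ cells (log2 fold change 3.69, SE 0.33, adjusted p = 1.70e-10) and 24.4 CPM in NG2-dsRed+ cells (2.55, SE 0.29, adjusted p = 1.90e-08). Its relative Sorcs1 was at 42.5, 8.42 and 6.02 CPM and was also higher in PSCs than in both. Sort1, the gene of sortilin, was higher in PSCs (75.3 CPM) than in S100β-GFP+ cells (20.6 CPM) and did not differ past the threshold from NG2-dsRed+ cells (86.4 CPM). Sorl1, another member of this receptor family, was lower in PSCs (4.26 CPM) than in S100β-GFP+ (14.0 CPM) and NG2-dsRed+ cells (15.5 CPM).

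Of 5 other GDNF family genes tested, 1 was higher in PSCs than in the S100β-GFP+ cells and 2 were higher than in NG2-dsRed+ cells, against 22.9% and 20.9% of all genes tested, and the others did not pass the threshold. The gene higher in both was Ncam1, the neural cell adhesion molecule that also binds GDNF with GFRα1, at 574 ± 84.4 CPM (SD, n = 9) in PSCs, 17.8 CPM in S100β-GFP+ cells and 12.7 CPM in NG2-dsRed+ cells (log2 fold changes 5.02 and 5.50, adjusted p = 8.18e-18 and 7.78e-20). No PSC library was below 462 CPM of Ncam1, and a relation of Ncam1 to the low Ret of these cells was not tested. Gfra2, named after its values were seen, did not pass the threshold in either PSC comparison. It was at 43.6 CPM in PSCs, 34.3 CPM in S100β-GFP+ cells and 54.0 CPM in NG2-dsRed+ cells. Sdc3, a heparan sulfate proteoglycan that binds GDNF, was at 188 CPM in PSCs, 119 CPM in S100β-GFP+ cells (adjusted p = 0.0610) and 79.1 CPM in NG2-dsRed+ cells (adjusted p = 0.000382).

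Of 9 genes tested that process proneurotrophins or inhibit that step, 7 were lower in PSCs than in the S100β-GFP+ cells (median log2 fold change -3.06), where 24.1% of all genes were lower, and 7 were lower than in NG2-dsRed+ cells (median -1.92), where 23.1% were lower, and the other 2 of each comparison did not pass the threshold. Plat, the tissue plasminogen activator whose product plasmin cuts proBDNF, was at 8.92 CPM in PSCs, 195 CPM in S100β-GFP+ cells and 95.2 CPM in NG2-dsRed+ cells (log2 fold changes -4.45 and -3.42, adjusted p = 7.12e-13 and 4.29e-11). The convertase genes Pcsk5 and Pcsk6 were lower in PSCs than in the S100β-GFP+ cells (6.99 against 58.2 CPM and 19.2 against 236 CPM). In NG2-dsRed+ cells they were at 18.6 and 11.5 CPM. Furin was lower in PSCs than in S100β-GFP+ cells (58.4 against 139 CPM, adjusted p = 0.00191), and at 73.0 CPM in NG2-dsRed+ cells it did not pass the threshold (adjusted p = 0.408). S100β-GFP+ libraries held the fibroblast and macrophage markers given above, and the part of those cells in these differences was not tested.

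Of 10 tested partners of p75NTR, 4 were higher and 2 lower in PSCs than in the S100β-GFP+ cells, and 3 higher and 1 lower than in NG2-dsRed+ cells. Over all genes tested, 47.0% and 44.0% differed in these comparisons. Bex3, which binds the death domain of p75NTR, was at 41.9 CPM in PSCs, 16.5 CPM in S100β-GFP+ cells and 21.5 CPM in NG2-dsRed+ cells (log2 fold changes 1.34 and 0.96, adjusted p = 4.25e-07 and 2.32e-05). Ripk2, a kinase recruited to p75NTR, was lower in PSCs (7.69 CPM) than in S100β-GFP+ cells (21.3 CPM, adjusted p = 1.67e-05). Pard3, the polarity protein that recruits p75NTR in Schwann cells, was higher in PSCs (66.2 CPM) than in S100β-GFP+ cells (38.0 CPM), and Arhgdia, an inhibitor of GDP release from small GTPases, was lower (192 against 293 CPM). Levels of Ripk2, Pard3 and Arhgdia in NG2-dsRed+ cells were 10.8, 56.7 and 234 CPM, between those of the other cell types. Rtn4r had no count in any library.

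Of 20 tested adaptors of Trk and Ret receptors, 3 were higher and 7 lower in PSCs than in the S100β-GFP+ cells (median log2 fold change 0.01), and 2 higher and 6 lower than in NG2-dsRed+ cells (median -0.27). These counts are near the shares of all genes tested that differed, 47.0% and 44.0%, and do not set the adaptors apart. Gab1, a docking protein, was higher in PSCs (101 CPM) than in S100β-GFP+ cells (33.5 CPM), and Grb2, the adaptor that couples receptors to Sos, was lower (38.8 against 82.3 CPM). In NG2-dsRed+ cells Gab1 was at 83.6 CPM and Grb2 at 44.4 CPM, nearer to PSCs. Plcg1, the phospholipase that TrkB activates, was at 24.0 CPM in PSCs, 40.3 CPM in S100β-GFP+ cells and 76.2 CPM in NG2-dsRed+ cells and had its lowest mean in PSCs (adjusted p = 0.0320 and 1.22e-05). PSC libraries, at 13.4 to 39.6 CPM, overlapped S100β-GFP+ libraries, at 17.5 to 88.4 CPM (median 29.8 CPM). Sh2b3 was lower in PSCs (133 CPM) and in S100β-GFP+ cells (121 CPM) than in NG2-dsRed+ cells (413 CPM).

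Of 9 tested genes known to respond to receptor tyrosine kinase signalling, 8 were higher in PSCs than in the S100β-GFP+ cells (median log2 fold change 2.43), where 22.9% of all genes were higher. All 9 were lower in S100β-GFP+ than in NG2-dsRed+ cells, where 15.2% of all genes were lower. Between PSCs and NG2-dsRed+ cells 4 were higher and 2 lower in PSCs (median 0.57), against 20.9% and 23.1% of all genes. Dusp6, a phosphatase that limits ERK, was at 258 CPM in PSCs, 48.1 CPM in S100β-GFP+ cells and 107 CPM in NG2-dsRed+ cells (log2 fold changes 2.43 and 1.28, adjusted p = 1.70e-10 and 3.10e-06). Spred1 (119, 61.1 and 79.9 CPM), an inhibitor of Ras signalling, was higher in PSCs than in both. Spry2 (98.6, 49.1 and 86.0 CPM) was higher in PSCs than in the S100β-GFP+ cells and did not pass the threshold against NG2-dsRed+ cells (adjusted p = 0.417). Spry1, a Sprouty like Spry2, was lower in PSCs (41.5 CPM) than in NG2-dsRed+ cells (187 CPM, adjusted p = 3.15e-07). The transcription factor genes Etv1 and Etv5, named after their values were seen, were at 351 and 154 CPM in PSCs, with no library of the other cell types above 87.8 CPM of Etv1 or 34.5 CPM of Etv5. These genes respond to many receptor tyrosine kinases.

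Of 10 tested genes of other nerve and muscle trophic factors and their receptors, 5 were higher in PSCs in each comparison. Another 2 were lower in PSCs than in S100β-GFP+ cells. Over all genes, the share with a higher PSC level was 22.9% against S100β-GFP+ and 20.9% against NG2-dsRed+ cells. The share with a lower PSC level was 24.1% against S100β-GFP+ cells. Ptn, the neurite outgrowth factor pleiotrophin, was at 1140 ± 573 CPM (SD, n = 9) in PSCs, 90.3 CPM in S100β-GFP+ cells and 33.7 CPM in NG2-dsRed+ cells (log2 fold changes 3.65 and 5.07, adjusted p = 4.98e-06 and 1.45e-08). Il6st (327, 195 and 202 CPM) and Lifr (127, 90.8 and 94.3 CPM), the shared receptor subunits for LIF and CNTF, were higher in PSCs than in either other sort, by log2 fold changes of 0.43 to 0.75. Manf, an endoplasmic reticulum stress factor, was at 59.0 CPM in PSCs, between S100β-GFP+ (78.5 CPM) and NG2-dsRed+ cells (45.9 CPM), and passed the threshold between those 2 (adjusted p = 0.00340). Clcf1 had no count in any library.

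**Figure D5:**
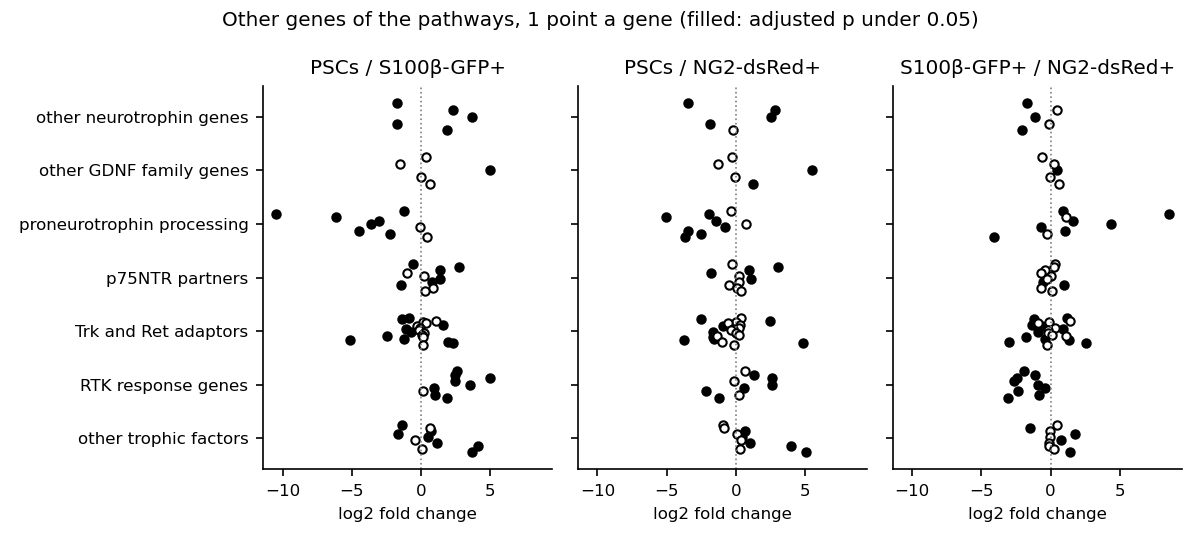
Log2 fold changes (x axes, 1 point for each gene that passed the filter) of the 7 lists of other pathway genes in PSCs over S100β-GFP+ cells (left), PSCs over NG2-dsRed+ cells (middle) and S100β-GFP+ over NG2-dsRed+ cells (right), filled where the adjusted p was under 0.05. Filled points of the proneurotrophin processing list lie left of 0 in both PSC comparisons, and those of the receptor tyrosine kinase (RTK) response genes lie right of 0 on the left and left of 0 on the right.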

How the data were processed

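RNA was isolated with PicoPure and SMART-Seq v4 libraries were sequenced; the authors used ea-utils and Btrim for trimming, HISAT2 for alignment to GRCm38 (per the labels) and HTSeq to count reads per gene. The deposited table holds whole-number counts without normalization. The sources used here do not give tool versions, annotation or the use of strand. Identifiers were matched to GENCODE M21 (GRCm38), which held 99.72% of them. No libraries of 1 cell type were identical, and all pairs differed by more than sampling noise (a chi-square of 8.10 or more per degree of freedom).

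Counts were normalized by TMM and filtered by filterByExpr at a minimum count of 10, which kept 15330 genes, in edgeR 4.0.16 (R 4.3.3), with 1 quasi-likelihood fit of the 3 cell types, with Benjamini-Hochberg adjustment over all genes at 0.05, and was tested on simulated data. CPM are counts per 1000000 of the TMM-scaled library size, and log2 CPM used a prior count of 2. The SE is the log2 fold change divided by the root of F. Copies made by PCR look like separate molecules here, so low counts carry more error than counting alone gives. Correlations across fewer than 10 libraries had exact permutation tests. Named are all 9 genes, per list up to 4 called genes with the highest mean log2 CPM, and the 3 genes most correlated with each member. The members, lists and the split of libraries 14, 17 and 22 were chosen with earlier results of these data known. Alternatives were DESeq2 1.42.0, limma-voom (limma 3.58.1), other size factors, filters and thresholds, a term for what Lars2, Gm23935 and Gm15564 took of each library, and fits without single libraries. Some genes of the marker and pathway lists are counted with their list but are not reported here by name.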

Additional observations from a re-analysis of the deposited data

Results flagged for a closer look

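In 4 of the 27 sets of libraries (9 genes in 3 cell types) the highest library lay farther from the others than Dixon's test at 95% allows. Chance alone flags about 1 set in 20 where values are normally distributed. Whether CPM from low counts meet this was not tested, so the 4 sets cannot be read as an excess. Ngfr was at 36.4 CPM in S100β-GFP+ library 33, and the next library was at 7.40 CPM. Bdnf was at 13.3 CPM in the same library, and the next was at 7.11 CPM. Without this library the log2 fold change of Bdnf in PSCs over S100β-GFP+ cells was -2.03 (edgeR adjusted p = 0.00696). Gfra3 was at 7.69 CPM (53 counts) in S100β-GFP+ library 1, and the next was at 3.31 CPM. Gdnf was at 1.27 CPM (9 counts) in NG2-dsRed+ library 30, and the next was at 0.463 CPM. What sets these libraries apart was not tested.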

How the results depend on the processing

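Ntrk2 and Bdnf in both PSC comparisons, and Ntf3, Gfra1 and Ret in PSCs against NG2-dsRed+ cells, kept their direction and passed the threshold under all 9 settings and in all 27 fits that left out 1 library, but limma-voom gave larger log2 fold changes for Bdnf (-4.16 and -4.45) and for Ntf3 (-3.46, and -2.12 in S100β-GFP+ over NG2-dsRed+ cells). Of the 9 genes, 2 passed the threshold in PSCs against S100β-GFP+ cells when S100β-GFP+ libraries 14, 17 and 22 were left out together, against 4, and 3 to 5 with single libraries left out. Between S100β-GFP+ and NG2-dsRed+ cells 4 differed with DESeq2, which added Gdnf and Gfra3, and 4 with no filter on low counts, which added Gfra3 and Ret (adjusted p = 0.0477 in place of 0.0742), against 2, and 1 to 3 with single libraries left out. Between PSCs and NG2-dsRed+ cells 5 to 6 differed with single libraries left out. Of the pathway genes, 24 in place of 37 differed between S100β-GFP+ and NG2-dsRed+ cells when a change of at least 2-fold was also required, and 41 to 46, 33 to 40 and 32 to 38 differed in the 3 comparisons with single libraries left out. Leaving out S100β-GFP+ libraries 14, 17 and 22 gave 41 pathway genes in place of 44 between PSCs and S100β-GFP+ cells. Of these, 25 were higher and 16 lower in PSCs, in place of 24 and 20. Without libraries 14, 17 and 22, log2 fold changes turned for Ngfr (-0.29) and Ntf3 (0.12) in PSCs over S100β-GFP+ cells, and for Ngfr (0.09) and Ntrk2 (-0.08) in S100β-GFP+ over NG2-dsRed+ cells. With single libraries left out, Ngfr ranged from -0.01 (without S100β-GFP+ library 22) to 1.06 in PSCs over S100β-GFP+ cells and from -0.32 to 0.00 (without NG2-dsRed+ library 28) over NG2-dsRed+ cells.

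The call of Ntf3 in PSCs against S100β-GFP+ cells was lost in 17 of 27 fits that left out 1 library (PSC 4, 6, 12, 20, 23, 34 or 36, S100β-GFP+ 14, 17 or 22, and NG2-dsRed+ 7, 9, 13, 15, 21, 26 or 30), with edgeR adjusted p up to 0.188. It was also lost with only these 2 cell types in the fit (adjusted p = 0.117) and with a term for what Lars2, Gm23935 and Gm15564 took of each library (0.318). In S100β-GFP+ against NG2-dsRed+ cells it was lost in 11 (S100β-GFP+ 1, 3, 11, 27 or 33, and NG2-dsRed+ 7, 9, 13, 15, 26 or 30), with adjusted p up to 0.0825. Ret in the same comparison passed the threshold in 5 settings and without PSC 18 or NG2-dsRed+ 13 or 21, and Ntrk3 in PSCs against NG2-dsRed+ cells in 4 settings and in 10 fits without 1 library. The exact permutation test of Gfra3 in S100β-GFP+ against NG2-dsRed+ cells lost its adjusted p under the threshold in 11 cases of 27, with values up to 0.0959, and that of Gdnf passed in 5. The cause was not tested. By CPM in place of CPM per kb, Ntrk2 made up 85.1% of the summed level of the 9 genes in PSCs, 59.8% in the S100β-GFP+ sort and 46.5% in the NG2-dsRed+ sort. No paired analysis was possible because the sources used here do not say which libraries, if any, shared a mouse. Library numbers run through the whole series and do not tell this. Depth limits Gdnf, Gfra3 and the PSC levels of Bdnf and Ret, which rest on few counts per library.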

Other observations

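Receptor genes that act together were compared within each cell type, as pairs chosen after the levels were seen and as part of the same 36 relations. In NG2-dsRed+ cells (n = 10 libraries) Ngfr and Ntrk2 had Spearman's rho = 0.82 (permutation p = 0.00577, adjusted p = 0.0346) and Pearson's r = 0.65 (p = 0.0317, adjusted p = 0.141), with r = 0.95 without the 2 libraries farthest from the median of Ngfr. Gfra1 and Ret had rho = 0.83 in these libraries (permutation p = 0.00475, adjusted p = 0.0342) and r = 0.59 (p = 0.0726, adjusted p = 0.187), with r = 0.85 without the 2 farthest libraries of Gfra1. These libraries also differed in the fibroblast markers, with which Gfra1, Ret and Ngfr moved. In PSCs (n = 9) Gfra1 and Ret had r = 0.77 (exact permutation p = 0.0236, adjusted p = 0.121) and rho = 0.62 (exact p = 0.0857, adjusted p = 0.257), and r = -0.07 without the 2 farthest libraries, so that this relation rested on them. The ligand and receptor pairs, Bdnf with Ntrk2 and Ntf3 with Ntrk3, did not pass in any of the 3 cell types. In PSCs Bdnf and Ntrk2 had r = -0.49 (exact permutation p = 0.182, adjusted p = 0.364) and rho = -0.32 (exact p = 0.410, adjusted p = 0.671), and r = -0.37 without the 2 farthest libraries. Ntf3 and Ntrk3 had r = -0.45 there (exact permutation p = 0.223, adjusted p = 0.401) and rho = -0.47 (exact p = 0.213, adjusted p = 0.451), and r = -0.38 without the 2 farthest libraries.

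PSC library 18 was at an end of the PSC range for 7 of the 9 genes. It was highest for Ngfr (16.8 CPM), Bdnf (4.21 CPM), Ntf3 (8.06 CPM) and Gfra3 (4.56 CPM) and lowest for Gfra1 (2.10 CPM), and it had no count of Ret or Gdnf, of which all other PSC libraries had counts. Library 18 had the fewest counts on genes among PSC libraries, 5334916, and PSC library 23 had only 1 count of Gdnf. Library 18 also held the most of 6 muscle fibre markers, 1550 CPM against 172 to 908 CPM in the other 8 PSC libraries. The parts of depth and of muscle fibre RNA in these levels were not tested.

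Metrn, the gene of the neurotrophic factor meteorin, was chosen after its values were seen. It was at 22.9 CPM in PSCs (16.2 to 34.7 CPM), 1.29 CPM in S100β-GFP+ cells (at most 2.18 CPM) and 1.41 CPM in NG2-dsRed+ cells (at most 3.50 CPM), with log2 fold changes of 4.11 and 4.02 (edgeR adjusted p = 2.61e-10 and 6.87e-11). Shc4, an adaptor of the Shc family chosen in the same way, was at 43.4 CPM in PSCs, 8.77 CPM in S100β-GFP+ cells and 1.45 CPM in NG2-dsRed+ cells (log2 fold changes 2.31 and 4.88, adjusted p = 3.05e-08 and 3.17e-14), while Shc1 was lower in PSCs (19.1 CPM) than in both (45.0 and 58.6 CPM).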
